A study of Mus musculus with 4 samples.

Results

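Claudins and 2 other core components of the tight junction, occludin (Ocln) and the scaffold ZO-1 (Tjp1), were followed in mouse embryonic stem cells that had lost the cytokine LIF for 4 or 6 days. The genes are the claudins Cldn3, Cldn4, Cldn5, Cldn6, Cldn7, Cldn9, Cldn11 and Cldn12 with Ocln and Tjp1, a named list of 10 genes out of 26983 genes in the tables. They correspond to 15 transcript rows, and 8 of the 10 had a mean of at least 1 FPKM (fragments per kilobase of transcript, scaled to the number of mapped fragments) and entered the test, Cldn5 mainly through 1 day 6 library. Cldn9 and Cldn11 did not.

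There were 2 libraries at day 4 and 2 at day 6, each from the CJ9 embryonic stem cell line (strain 129S4/SvJae, genotype given as wild type, with Cas9 only per the titles) under LIF withdrawal. The series as a whole asks what deleting the Evx1as/Evx1 locus does to differentiation. Cells with that deletion were not analysed here. Days and replicate numbers follow the titles and the harvest days in the extraction text. The growth text disagrees with both: it gives 2 and 6 days without LIF for day 4 replicates 1 and 2, and 4 and 6 days for day 6 replicates 1 and 2. By the growth text the day 4 pair would differ in time and day 4 replicate 2 would match day 6 replicate 2, so every difference between days below rests on the titles being right. No label states whether libraries sharing a day were grown separately, and the p-values therefore cover just the spread among these libraries, which may be technical. Depth, read from the size of the smallest step in FPKM times length, was near 4990000 and 4940000 fragments at day 4 (replicate 1, then replicate 2) and near 9760000 and 8480000 at day 6.

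Tight junctions seal the space between neighbouring epithelial cells. Claudins are small proteins with 4 membrane spans whose extracellular loops meet across the gap and set which ions pass, and the mixture of claudins decides whether the seal is tight or selectively leaky. Occludin and tricellulin (Marveld2) are membrane proteins that stabilise the strands, and the scaffolds ZO-1 and ZO-3 (Tjp3) bind claudin tails through PDZ domains and tie them to actin. In the early embryo Cldn4, Cldn6 and Cldn7 are claudins of the first epithelia, such as the trophectoderm, Cldn5 is the claudin of endothelium, and Cldn11 that of myelin and Sertoli cells. Factors of the Snail and Zeb families, which act in the epithelial to mesenchymal transition, can repress claudin and occludin promoters through E-boxes.

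The 4 abundant claudins lie on 3 chromosomes, and the 250 bases before their start sites are shown because these genes carried most of the claudin signal. Sequences are from RefSeq (GRCm38.p6, the assembly that mm10 stands for). They run 5′ to 3′ on the gene's strand and end at the base before the start site of the transcript measured. Capitals mark a GC box (GGGCGG, read by Sp and Klf factors) or a Snail/Zeb E-box (CACCTG), on either strand.
Cldn4, chr5:134946935-134947184, minus strand: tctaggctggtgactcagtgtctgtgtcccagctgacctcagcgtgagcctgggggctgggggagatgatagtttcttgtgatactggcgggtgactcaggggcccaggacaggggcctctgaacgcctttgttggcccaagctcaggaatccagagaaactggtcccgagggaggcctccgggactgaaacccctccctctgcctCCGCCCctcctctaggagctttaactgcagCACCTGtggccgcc
Cldn3, chr5:134985964-134986213, plus strand: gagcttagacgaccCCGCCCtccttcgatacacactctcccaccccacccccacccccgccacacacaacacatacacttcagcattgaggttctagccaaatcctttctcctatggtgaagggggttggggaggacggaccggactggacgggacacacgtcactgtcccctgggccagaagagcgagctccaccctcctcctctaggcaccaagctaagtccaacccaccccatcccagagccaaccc
Cldn6, chr17:23679115-23679364, plus strand: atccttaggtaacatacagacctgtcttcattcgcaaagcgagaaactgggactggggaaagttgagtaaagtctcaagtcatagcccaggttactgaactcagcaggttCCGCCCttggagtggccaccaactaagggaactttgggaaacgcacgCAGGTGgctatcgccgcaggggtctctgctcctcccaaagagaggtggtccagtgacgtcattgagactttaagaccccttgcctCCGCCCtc
Cldn7, chr11:69965171-69965420, plus strand: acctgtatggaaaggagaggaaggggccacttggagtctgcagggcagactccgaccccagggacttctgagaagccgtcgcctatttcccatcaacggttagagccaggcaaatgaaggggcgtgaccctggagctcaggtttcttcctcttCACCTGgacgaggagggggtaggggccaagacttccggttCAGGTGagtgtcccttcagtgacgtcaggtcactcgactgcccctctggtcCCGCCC
Start sites could be matched for 9 of the 10 genes. Of those 9 windows, 7 held a GC box (32.7% of 32851 promoter windows of the same length did) and 4 held the E-box (17.2%), namely Cldn4, Cldn6, Cldn7 and Ocln. The 9 windows ran from 42.0% GC (Cldn12) to 69.2% (Ocln). All but that of Cldn12 lay above the median of 52.4% over all windows. The part of base composition in these counts was not tested. Cldn7 had 2 E-boxes, 97 to 92 and 57 to 52 bases before its start site, and the single E-box of Cldn4 lay 14 to 9 bases before its start. The AP-2 letters GCCNNNGGC (13.7% of windows) were found in the Ocln window alone, where they overlap a GC box, and neither the grainyhead letters AACCNGGTT (0.24%) nor TATAAA (12.4%) were in any of the 9. A match is a stretch of letters and not evidence of binding.

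Cldn4 and Cldn3 are neighbours on chromosome 5. Cldn4 (1 exon, 134945124 to 134946934, minus strand) and Cldn3 (1 exon, 134986214 to 134987476, plus strand) point away from each other, with 39279 bases between their start sites. On chromosome 17 Cldn6 (3 exons, 23679365 to 23682446, plus strand) and Cldn9 (1 exon, 23682584 to 23684026, minus strand) converge, with 137 bases between their ends. Cldn7 (4 exons) occupies 69965421 to 69967886 of chromosome 11, plus strand. These positions are those of the mm10 transcript rows. Another transcript, Wbscr25, overlaps the Cldn3 row and was given between 0.157 and 0.517 FPKM. The library kit keeps strand, per the labels' protocols, but the strand setting of the counting is not known here, so reads of this pair cannot be told apart.

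Cldn4 and Cldn6 were the most abundant members, and with Cldn7 they made up most claudin RNA in every library. Cldn4 measured 121 and 434 FPKM at day 4, then 388 and 222 FPKM at day 6 (replicates 1 and 2 in each case). Its days overlapped, because day 4 replicate 2 was the highest of the 4 libraries and day 4 replicate 1 the lowest. Cldn6, an embryonic claudin, measured 140 and 111 FPKM at day 4, then 362 and 205 FPKM at day 6, so both day 6 libraries lay above both day 4 libraries. Cldn7, which forms a complex with the adhesion protein Epcam, measured 40.5 and 122 FPKM at day 4, then 104 and 70.5 FPKM at day 6, and its days overlapped in the same way as those of Cldn4. Within the ranking of all genes in a library, Cldn4 was between place 156 and place 576 and Cldn6 between place 193 and place 605.

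Cldn3 had the lowest mean of these 4 claudins on each day. It measured 5.48 FPKM (deposited interval 3.41 to 7.43) and 42.1 FPKM (33.3 to 45.0) at day 4, and 63.3 and 58.5 FPKM at day 6. Both day 6 libraries were above both day 4 libraries, and the day 4 libraries differed 7.68-fold from each other. Its share of all claudin FPKM was 1.70 and 5.88% at day 4 and 6.77 and 10.2% at day 6.

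**Figure D1:**
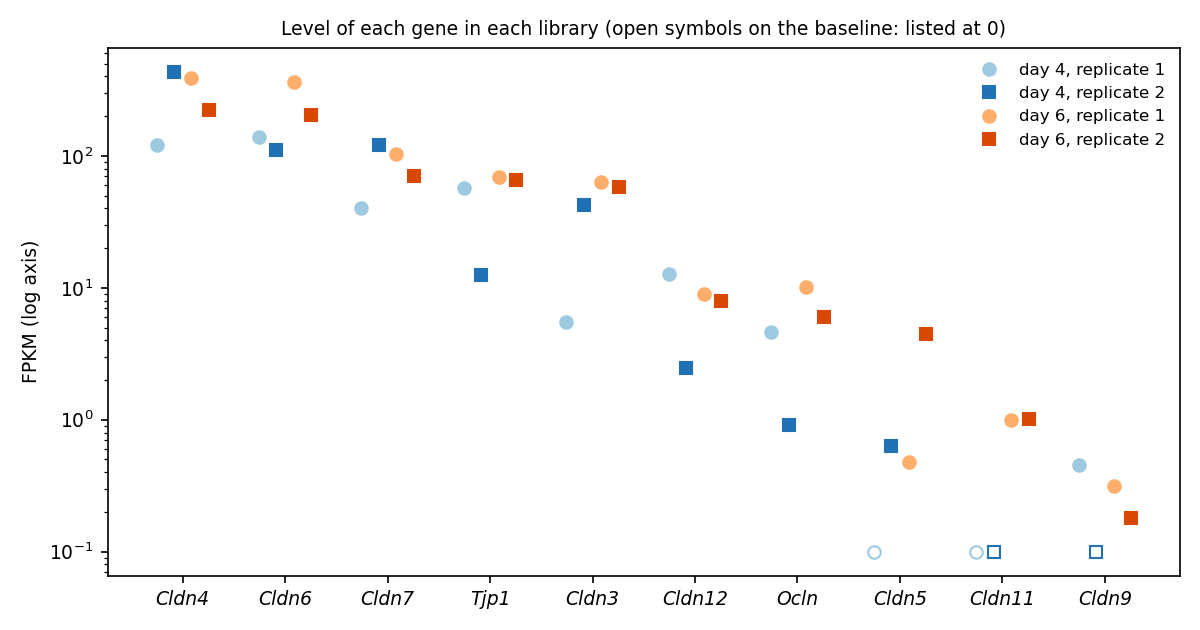
FPKM (log axis) of the 10 genes in each of the 4 libraries, ordered by mean level. Blue symbols are day 4, orange symbols day 6, circles replicate 1 and squares replicate 2; open symbols on the baseline are values listed at 0. Cldn4 and Cldn6 are highest, and the 2 blue symbols of Cldn3, Cldn4, Cldn7, Tjp1, Ocln and Cldn12 lie far apart.

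Among the barrier components outside the classic claudins, Tjp1 and Ocln were higher in both day 6 libraries. Tjp1 measured 57.3 and 12.5 FPKM at day 4, then 69.7 and 66.1 FPKM at day 6. Ocln measured 4.64 FPKM (interval 3.55 to 5.70) and 0.913 FPKM (0.495 to 1.36) at day 4 and 10.1 and 6.03 FPKM at day 6. For both genes day 4 replicate 2 was by far the lowest library, 4.57-fold below replicate 1 for Tjp1 and 5.08-fold for Ocln. Cldn12, a claudin that lacks the usual PDZ-binding tail, was 5.14-fold lower in day 4 replicate 2 than in replicate 1. It measured 12.6 and 2.46 FPKM at day 4, then 8.99 and 7.98 FPKM at day 6, so the day 6 libraries fell between the 2 day 4 libraries.

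The other 3 claudins were near the bottom of the range. Cldn5, the endothelial claudin, was listed at 0 and given as 0.631 FPKM (interval 0.139 to 1.12) at day 4, and as 0.480 FPKM (0.142 to 0.782) and 4.48 FPKM (3.09 to 5.85) at day 6. Its days overlapped, and day 6 replicate 2 alone stood high. Cldn11 had a listed value of 0 in each day 4 library, then 0.998 FPKM (0.538 to 1.45) and 1.01 FPKM (0.491 to 1.47) at day 6. Cldn9 did not exceed 0.456 FPKM in any library and was listed at 0 in day 4 replicate 2, although its 3′ neighbour Cldn6 was among the most abundant genes.

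The order of mean levels at day 6 was Cldn4 (305 ± 117 FPKM, SD, n = 2), Cldn6 (283 ± 112), Cldn7 (87.2 ± 23.6), Tjp1 (67.9 ± 2.51), Cldn3 (60.9 ± 3.39), Cldn12 (8.49 ± 0.720), Ocln (8.09 ± 2.91), Cldn5 (2.48 ± 2.83), Cldn11 (1.00 ± 0.00649) and Cldn9 (0.246 ± 0.0947). FPKM is a level per length, so genes can be set side by side on it, but it does not remove the differences by GC content described below. Cldn4 and Cldn6 did not differ beyond their spread, nor did Cldn12 and Ocln, nor Cldn5 and Cldn11. The other neighbours in this order did not overlap between libraries, Cldn7 and Tjp1 by a narrow margin (lowest Cldn7 value 70.5 FPKM, highest Tjp1 value 69.7 FPKM). At day 4 the means were 278 ± 221 FPKM for Cldn4, 126 ± 20.2 for Cldn6, 81.0 ± 57.4 for Cldn7, 34.9 ± 31.6 for Tjp1, 23.8 ± 25.9 for Cldn3, 7.55 ± 7.20 for Cldn12 and 2.78 ± 2.63 for Ocln. Many neighbours overlapped at day 4, where Cldn7 overlapped Tjp1 and Cldn3, while Tjp1 lay above Ocln in both libraries.

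Claudin RNA as a whole came from few genes. Of 31 claudin genes with a row, 5 and 6 reached 1 FPKM in day 4 replicates 1 and 2 and 7 and 8 in day 6 replicates 1 and 2, and 13 were listed at 0 in all 4 libraries. Cldn1 and Cldn23 were the 2 genes outside the list of 10 that reached 1 FPKM in any library. Of 25 other claudin and claudin-domain genes with a row, 2 (Cldn23 and Cldnd1) could be tested, and neither separated the days. Summed claudin FPKM was 322 and 715 at day 4 and 935 and 572 at day 6, so the days overlapped. Cldn4, Cldn6 and Cldn7 together took 93.6 and 93.3% of it at day 4 and 91.4 and 86.9% at day 6. Within that, Cldn4 held 37.6% and Cldn6 43.4% in day 4 replicate 1, whereas they held 60.7 and 15.6% in day 4 replicate 2. At day 6 the 2 were close to each other, at 41.5 and 38.8% in replicate 1 and 38.8 and 35.8% in replicate 2.

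None of the 8 genes tested passed the threshold between day 6 and day 4, which no gene in the table did (limma on log2(FPKM + 1), adjusted p under 0.05; 0 of 11716 genes, 0%; 1793 genes or 15.3% had an unadjusted p under 0.05, and none of the 8 was among them). On that log2 scale, which understates changes of low genes, Cldn3 differed by 1.89 (day 6 minus day 4, standard error 1.01; limma, adjusted p = 0.429). Cldn6 differed by 1.12 ± 0.54 (limma, adjusted p = 0.400), Ocln by 1.43 ± 0.70 (adjusted p = 0.401) and Tjp1 by 1.29 ± 0.83 (adjusted p = 0.485). Cldn5 was at 1.16 ± 0.76, Cldn12 at 0.46 ± 0.78, Cldn4 at 0.35 ± 0.82 and Cldn7 at 0.28 ± 0.71, with limma adjusted p from 0.493 to 0.861. An exact two-sided permutation test gave p = 0.333 for Cldn3, Cldn6, Cldn11, Ocln and Tjp1, the smallest p that 2 against 2 libraries allow. In bulk RNA a larger share of epithelial cells and more RNA per cell cannot be told apart.

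Of the 8, 4 (Cldn3, Cldn6, Ocln and Tjp1) had day 6 values above day 4 values without overlap and none was lower. Over all genes tested 41.6% were higher without overlap and 11.5% lower, so this count lies near the background. The median difference of the 8 was 1.14, against 0.51 over all genes. With each library centred on its median, 1 of the 8 (Cldn6) was higher without overlap, where 20.3% of all genes were higher and 26.4% lower, and the median over all genes moved from 0.51 to -0.12. After a correction for GC content, 3 (Cldn3, Ocln and Tjp1) were, against 27.4% of all genes higher and 27.8% lower. Both settings put Cldn4, Cldn7 and Cldn12 below 0 (GC correction -0.01, -0.07 and -0.18; centring -0.28, -0.35 and -0.16), and they left Cldn3, Cldn5, Cldn6, Ocln and Tjp1 above 0. The sign of Cldn5 carries no weight, since it entered the test through day 6 replicate 2, where it is high.

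**Figure D2:**
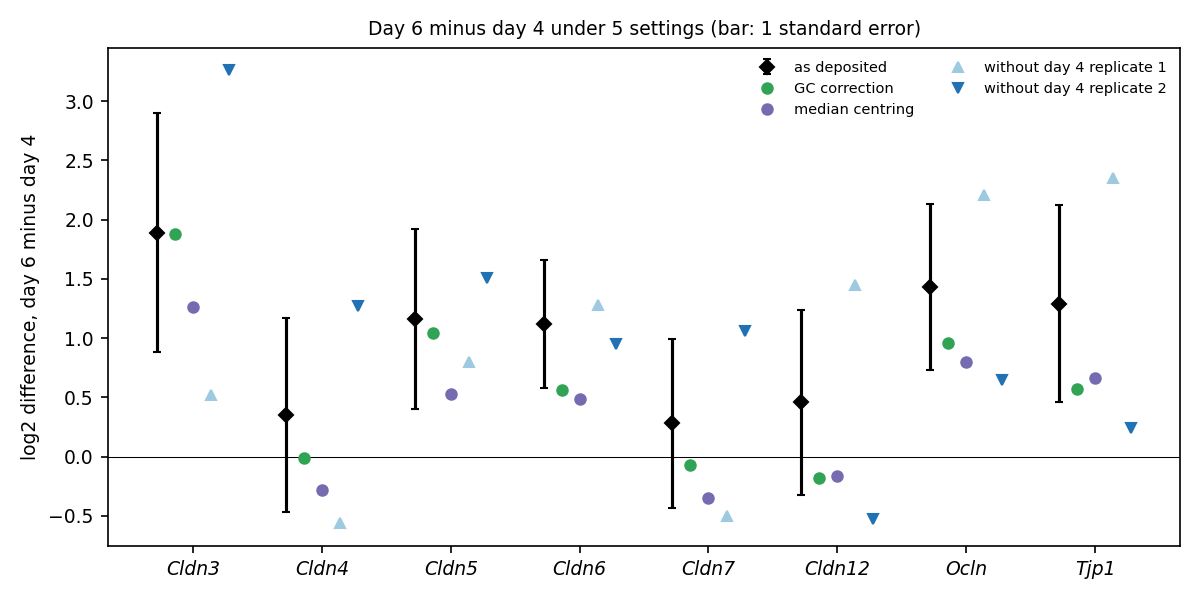
Log2 difference of day 6 minus day 4 for the 8 genes tested, as deposited (diamonds, bars of 1 standard error) and under 4 other settings. Cldn3, Cldn6, Ocln and Tjp1 stay above 0 in all 5, as does Cldn5, which passed the filter through its high day 6 library, while Cldn4, Cldn7 and Cldn12 lie on both sides of 0. For Cldn3, Cldn6, Ocln and Tjp1, whose days did not overlap, leaving out a library could not change the sign.

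Which day 4 library was used decided most of these values. Without day 4 replicate 1, 5 of the 8 genes passed the limma threshold, all higher at day 6: Cldn3 (0.52, adjusted p = 0.0481), Cldn6 (1.28, 0.0261), Cldn12 (1.45, 0.00326), Ocln (2.21, 0.00341) and Tjp1 (2.35, 0.000481). Without day 4 replicate 2, 3 passed, also higher: Cldn3 (3.26, adjusted p = 0.00207), Cldn4 (1.27, 0.0302) and Cldn7 (1.06, 0.0232). With those libraries left out, 66.9 and 51.9% of all genes passed, because the spread then comes from the day 6 pair alone. The difference of Cldn3 had very different sizes in the 2 fits, 0.52 and 3.26. Cldn6 changed least in size between the 2 fits, 1.28 and 0.95, and passed in the first alone (limma, adjusted p = 0.0722 in the second).

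The gap between the day 4 libraries differed in sign among the members, and 6 of them are described by base composition first. Cldn3 (62.7% GC in the transcript), Cldn4 (56.8%) and Cldn7 (57.0%) were higher in replicate 2, by 2.73, 1.83 and 1.56 log2 units. Tjp1 (46.8%), Cldn12 (44.4%) and Ocln (42.0%) were lower in replicate 2, by -2.11, -1.98 and -1.56. Cldn6, at 54.4% GC, had a gap of -0.33 where genes of like GC had 0.23. Cldn5 (60.5%) had a gap of 0.71, Cldn9 (56.6%) one of -0.54 against 0.67 for genes like it, and Cldn11 (50.9%) was listed at 0 in both. Over all genes tested the median gap went from -1.75 in genes of 38 to 42% GC to 1.68 in genes of 62 to 66% GC, and at day 6 the medians of the same bins stayed between -0.11 and -0.02. Genes within 2 percentage points of the GC content of Cldn3 had a median gap of 1.58, so Cldn3 exceeded them by 1.15. For Cldn4 and Cldn7 the excess was 1.12 and 0.81, for Ocln 0.03, and Tjp1 and Cldn12 lay 0.99 and 0.63 below the genes like them. The part of GC content in the gap of any single gene was not tested.

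**Figure D3:**
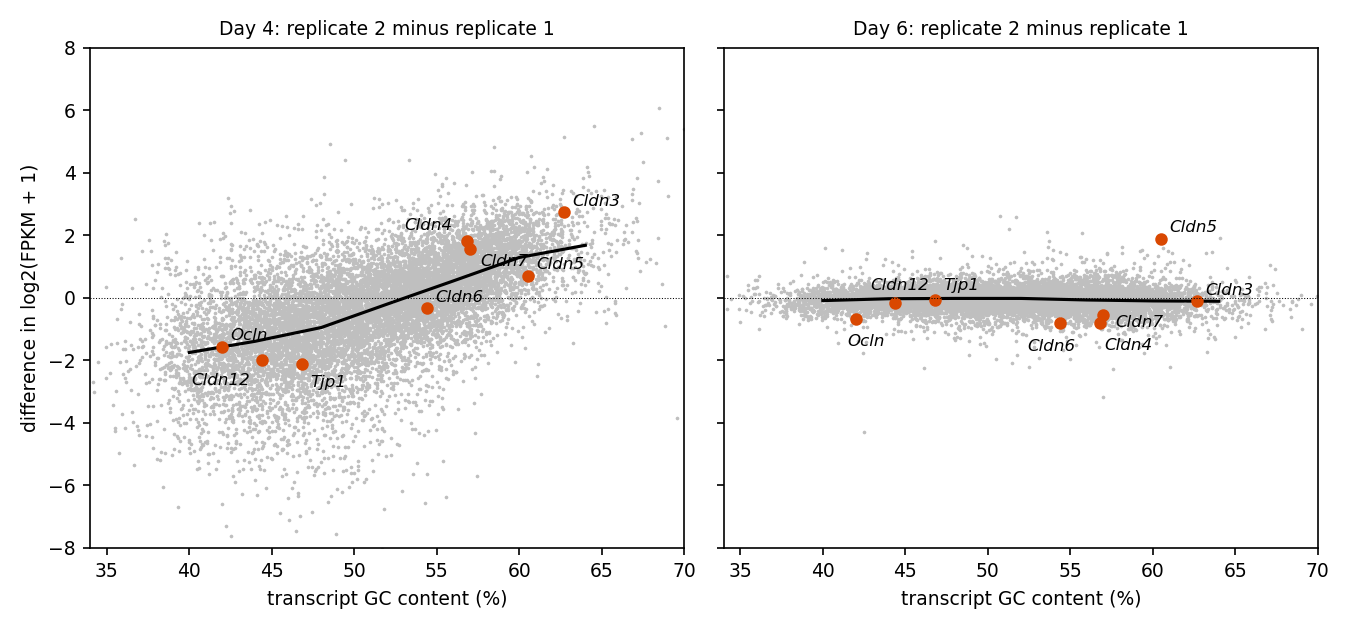
Difference in log2(FPKM + 1) between replicate 2 and replicate 1 against transcript GC content, at day 4 (left) and day 6 (right). Grey dots are all genes tested with a GC value, the black line joins medians of 4-point GC bins, and orange dots are the 8 genes. At day 4 the line climbs from -1.75 to 1.68, with Cldn3, Cldn4 and Cldn7 above 0 and Ocln, Cldn12 and Tjp1 below; at day 6 it stays between -0.11 and -0.02.

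Ratios between members within a library were compared for the 21 pairs of the 7 genes tested that were above 0 in every library. The ratio that varied least over the 4 libraries was Cldn4 to Cldn7, with a ratio of 2.99 and 3.57 at day 4 and 3.73 and 3.15 at day 6. That is a range of 1.25-fold over 4 libraries in which Cldn4 itself ranged from 121 to 434 FPKM. For 5 of the 21 pairs the ratio did not overlap between the days. The same count over pairs of all genes was not made, so it is a description only. Among single genes tested, 41.6% were higher and 11.5% lower without overlap. Relative to Cldn4 and Cldn7, Cldn3 was higher at day 6. Cldn3 to Cldn4 was 0.0453 and 0.0969 at day 4 and 0.163 and 0.264 at day 6. Cldn3 to Cldn7 was 0.135 and 0.346 against 0.610 and 0.831. Cldn3 to Cldn6 overlapped, at 0.0391 and 0.377 against 0.175 and 0.286. Among the genes of low GC, Ocln to Cldn12 was 0.367 and 0.372 at day 4 and 1.13 and 0.756 at day 6, Tjp1 to Cldn12 was 4.53 and 5.10 against 7.74 and 8.29, and Ocln to Tjp1 was 0.0810 and 0.0728 against 0.146 and 0.0912. Within day 4 these last 3 ratios differed by 1.01-, 1.13- and 1.11-fold between libraries, although each gene alone differed by at least 4.57-fold. These pairs were picked out after their values were seen and carry no test.

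Tjp1 has 2 transcript rows, which differ in an internal exon of 240 bases (exon 20 of 28 in NM_009386, chromosome 7, 65314093 to 65314332, minus strand). The exon encodes the alpha domain of ZO-1, whose inclusion is known as a feature of mature epithelial junctions. The rows also differ by 60 bases at the exon near the 3′ end (84 against 144 bases). The row with the 240-base exon was given as 9.24 FPKM (interval 7.83 to 10.7) and 0.000404 FPKM (upper bound 0.0573) at day 4, and as 20.4 FPKM (18.8 to 22.0) and 15.4 FPKM (14.0 to 16.8) at day 6. It took 16.1 and 0.00322% of Tjp1 FPKM at day 4, then 29.3 and 23.3% at day 6, so the shares of the 2 days did not overlap. The row without the exon was nearly level in 3 libraries, at 48.0, 49.3 and 50.7 FPKM in day 4 replicate 1 and day 6 replicates 1 and 2, and stood at 12.5 FPKM in day 4 replicate 2. Such shares rest on how the authors' quantifier divided reads between the rows. Cldn12 was spread over 4 rows that differ before the coding exon, led by NM_022890 with 63.2 to 100% of its FPKM, and Cldn7 came almost wholly from 1 of its 2 rows (98.4% or more).

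**Figure D4:**
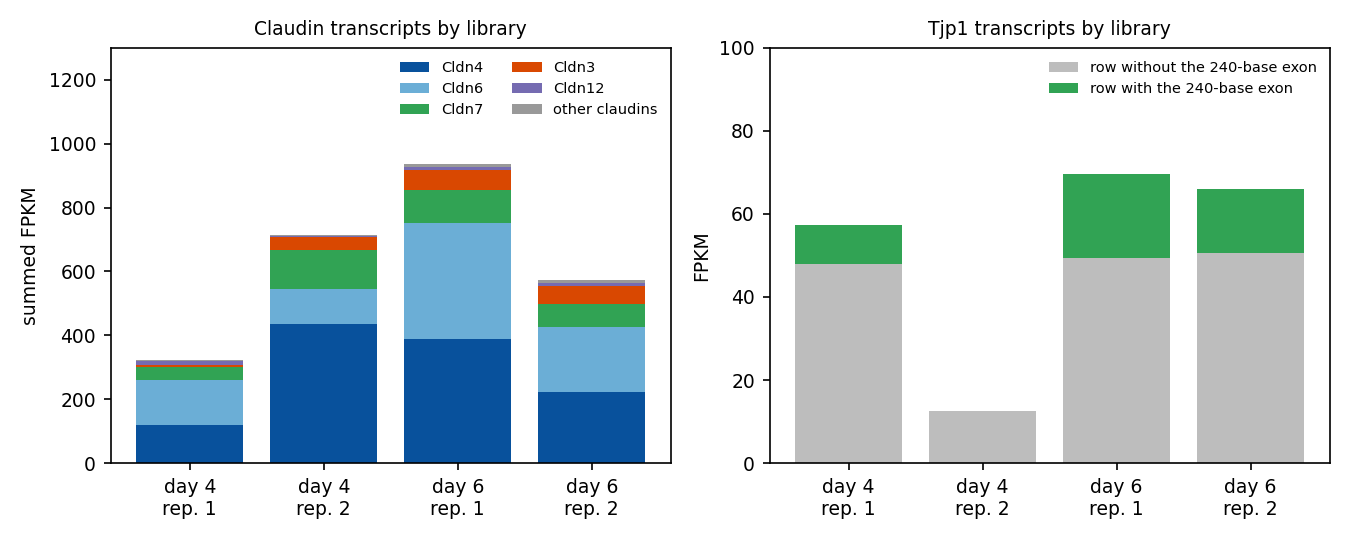
Left, summed FPKM of all claudins in each library, stacked by gene; right, FPKM of the 2 Tjp1 rows in each library. Claudin totals run from 322 to 935 FPKM with Cldn4, Cldn6 and Cldn7 on the bottom of each bar, and the Tjp1 row with the 240-base exon is not visible in day 4 replicate 2.

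The 2 day 6 libraries differed little over all genes (SD of the log2 difference 0.359, against 1.69 at day 4), and within them several junction genes differed in the same direction. Cldn6, Cldn4, Ocln and Cldn7 were 1.77-, 1.75-, 1.68- and 1.47-fold higher in replicate 1 than in replicate 2, whereas Tjp1, Cldn3 and Cldn12 were within 1.13-fold. Cldn5 went the other way, from 0.480 FPKM in replicate 1 to 4.48 FPKM in replicate 2. Of 10 endothelial markers, 9 were also higher there, Emcn by a trace, and Flt1 was not (9.11 FPKM in replicate 1, 8.64 FPKM in replicate 2). The share of all genes higher in replicate 2 was not computed. Medians of the log2 difference, replicate 2 minus replicate 1, lay between -0.11 and -0.02 over the GC bins. The summed level of the 10 endothelial markers was 35.0 FPKM in replicate 1 and 65.0 FPKM in replicate 2, against 13.4 and 11.4 FPKM at day 4. Cdh5 (VE-cadherin) measured 0.613 FPKM, 0, 2.87 and 9.64 FPKM over day 4 replicates 1 and 2 and day 6 replicates 1 and 2, and 2 of the 10 markers, Tie1 and Emcn, were listed at 0 in both day 4 libraries. Fibroblast markers went both ways between the day 6 libraries. Their sum over 10 genes was 288 FPKM in replicate 2 against 154 FPKM in replicate 1, carried mainly by Col1a1 (127 against 58.4 FPKM) and Col1a2 (60.6 against 23.7 FPKM), while Thy1, Lum, Dcn and S100a4 were lower in replicate 2, with 3 of the 10 listed at 0 in both day 4 libraries. The part of cell makeup in these differences was not tested.

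Other membrane proteins of the tight junction were described from a list of 12 genes, of which 10 were tested. Of these, 5 were higher without overlap at day 6 and 1, Lsr, was lower, with a median of 0.67. Over all genes 41.6% were higher and 11.5% lower, with a median of 0.51. Clmp, among the 5, passed the filter through day 6 (mean 0.815 FPKM at day 4 and 1.64 FPKM at day 6). F11r (JAM-A), an immunoglobulin-type adhesion molecule that recruits polarity proteins to young junctions, measured 31.9 and 4.86 FPKM at day 4, then 150 and 120 FPKM at day 6. Its difference of 3.29 with a standard error of 0.95 was larger than that of any claudin tested (limma, adjusted p = 0.288), and it stayed between 2.04 and 4.53 under every setting tried. Tricellulin (Marveld2), which seals the corners where 3 cells meet, measured 6.67 and 2.06 FPKM at day 4, then 13.9 and 9.03 FPKM at day 6. Lsr, which recruits tricellulin to those corners, measured 70.7 and 80.9 FPKM against 61.2 and 49.5 FPKM, and its difference changed sign between settings (from -1.08 to 0.08).

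Scaffold and polarity genes went both ways. Of 25 tested, 12 were higher without overlap at day 6 and 5 were lower (Cgn, Magi1, Magi2, Amotl2 and Ybx3), with a median of 0.45, near the 41.6% higher, 11.5% lower and median of 0.51 over all genes. Tjp3 (ZO-3) measured 1.69 and 4.98 FPKM at day 4, then 19.0 and 24.1 FPKM at day 6. Cingulin (Cgn), which links ZO proteins to the cytoskeleton, measured 117 and 99.2 FPKM at day 4, then 77.9 and 55.6 FPKM at day 6, whereas its paralogue Cgnl1 measured 5.84 and 2.79 FPKM against 25.1 and 27.4 FPKM. Prkcz, an atypical protein kinase C of the apical polarity complex, measured 1.60 and 1.67 FPKM at day 4, then 15.6 and 14.0 FPKM at day 6. The differences of Tjp3 (2.48), Cgnl1 (2.42) and Prkcz (2.58) each had a limma adjusted p of 0.267, and that of Cgn (-0.70) one of 0.498. The days of these genes did not overlap, so leaving out a library could not change their signs. Under GC correction and median centring, which could, Tjp3 was at 2.38 and 1.85 and Cgnl1 at 1.75 and 1.79. Prkcz was at 2.07 and 1.95, and Cgn at -1.24 and -1.33.

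Epithelial partners and regulators of claudins were followed as a list of 18 genes, 17 of them tested. Without overlap 8 were higher and 2 lower (Klf5 and Ovol2), with a median of 0.48, again near the 41.6 and 11.5% of all genes and their median of 0.51. Epcam, which binds Cldn7, measured 65.3 and 128 FPKM at day 4, then 65.3 and 67.2 FPKM at day 6, and E-cadherin (Cdh1) 336 and 169 FPKM against 365 and 304 FPKM, so neither separated the days. Prss8, a membrane-anchored serine protease of epithelia, and Spint1, an inhibitor of such proteases, separated them. Prss8 measured 12.7 and 22.8 FPKM at day 4, then 88.8 and 80.4 FPKM at day 6. Spint1 measured 17.0 and 19.9 FPKM against 136 and 98.7 FPKM. Their differences were 2.24 ± 0.50 and 2.59 ± 0.46 (limma, adjusted p = 0.267 for each, standard errors). Grhl2, a grainyhead factor that drives claudin and Cdh1 expression, measured 5.23 and 2.60 FPKM at day 4, then 10.6 and 9.06 FPKM at day 6.

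Mesenchymal switch genes stood beside the claudins at day 6. Of 10 tested, 7 were higher without overlap and none lower, with a median of 1.65. Over all genes 41.6% were higher and 11.5% lower (20.3 and 26.4% with median centring). Snai2, Zeb1 and Zeb2, among the 7, had day 4 means below 1 FPKM (0.374, 0.208 and 0.952) and passed the filter through day 6. Their direction therefore carries no weight, and the count and median lean towards day 6. Among the E-box repressors, Snai2 measured 0.105 and 0.642 FPKM at day 4, then 4.99 and 13.2 FPKM at day 6, and Zeb1 0.346 and 0.0700 FPKM against 3.26 and 4.28 FPKM. Snai1 measured 23.1 and 45.4 FPKM against 20.3 and 33.2 FPKM, with overlapping days. These are sums over all cells of a culture, in which epithelial and mesenchymal cells cannot be told apart. For the cells as labelled, 5 of 10 pluripotency markers were lower without overlap at day 6 and 2 higher, beside 11.5% lower and 41.6% higher over all genes. The pluripotency factor Pou5f1 measured 368 and 376.5 FPKM at day 4, then 54.9 and 42.0 FPKM at day 6. Summed over 10 genes each, trophoblast markers ranged from 139 to 207 FPKM at day 4, then from 451 to 606 FPKM at day 6. Visceral endoderm markers ranged from 2.07 to 4.28 FPKM, then from 16.4 to 27.9 FPKM. Ttr was the largest part of that day 6 sum, at 8.13 and 11.04 FPKM, and was listed at 0 in both day 4 libraries. Mean levels of Foxa1 (0.843, then 0.74 FPKM) and Amn (0.193, then 0.184 FPKM) were lower at day 6. Most of the trophoblast sum at day 6 came from Hand1 (181.1 and 329.2 FPKM) and Krt7 (146.1 and 129.4 FPKM). At day 4 Hand1 measured 73.77 and 36.57 FPKM and Krt7 25.72 and 58.07 FPKM. Of 7 trophoblast markers tested, 4 were higher without overlap: Hand1, Krt7, Ascl2 and Plac1, which passed the filter through day 6. Days overlapped for Cdx2, Gata3 and Tead4. Mean levels of Gata3 (30.1, then 22.3 FPKM) and Tead4 (18.5, then 17.7 FPKM) were lower at day 6. In each of these 2 lists 4 genes were listed at 0 in both day 4 libraries, and Afp, Tpbpa and Prl3d1 were listed at 0 in all 4. The part of these cell types in the junction genes was not tested.

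The 3 tested genes whose profile over the 4 libraries lay nearest to that of Cldn4, the claudin with the highest mean, were Lurap1l, Cars2 and Jun. The Euclidean distance between centred log2 profiles was 0.125, 0.147 and 0.181, and 135 genes lay within 0.5, so with 4 libraries many genes share this shape.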

How the data were processed

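Bead-isolated mRNA was made into 4 stranded TruSeq libraries, per the labels' protocols. The tools named are CASAVA and TopHat2 (2.0.11), with mm10 as the build, per the submitters' processing notes; quantifier, annotation and strand setting: not given in the sources used here. The authors deposited 1 table of 35656 transcript rows per library with FPKM, FPKM bounds and coverage, an unscaled signal used for nothing beyond a check of depth. For Cldn4 (3 libraries) and Cldn6 (2 libraries) the deposited FPKM lies above its own upper bound, so those bounds were not printed. Bounds cover counting error only.

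Rows were named from RefSeq (GRCm38.p6; 30286 rows) and GENCODE M21 (164 rows by RefSeq link and 3585 by transcript ID); 1621 kept their ID. FPKM were summed per symbol. The test took genes whose mean reached 1 FPKM, on log2(FPKM + 1) with limma 3.58.1 in R 4.3.3 (moderated with a trend on the mean; two-sided p adjusted by Benjamini-Hochberg over 11716 genes; threshold 0.05), in a fit tested on simulated data. GC content came from GENCODE transcripts (97.4% of genes tested); the GC correction removed a spline with 5 degrees of freedom in each library. Alternatives were a pseudocount of 0.1, no filter, median centring, GC correction, a replicate block, the largest row per gene, and leaving out each library. Named genes are the 10 members and, from each other list, anchors, the 4 smallest p or the largest sum. List members that were lower at day 6, list counts of 5 or fewer, Snai1, Lsr and markers at 0 were named after their values were seen. So were Zeb2, Clmp and markers named because their days overlapped. 1 anchor gene is not reported here. Members and lists were chosen with earlier results of these data known.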

Additional observations from a re-analysis of the deposited data

How the results depend on the processing

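The count of genes past the threshold was 0 as deposited, without a filter, with a pseudocount of 0.1 FPKM, with median centring, with GC correction and with the largest row per gene. It was 67 with a replicate block and 26 with the block and GC correction together, and ranged from 0 to 7837 without 1 library. Same-numbered libraries share a replicate number in their titles, but no label states that they form pairs. Their deviations had a correlation of -0.0903 over genes. The gap at day 4 was much larger than at day 6 (SD 1.69 against 0.359) and varied with GC content. The correlation therefore cannot decide whether the numbers mark pairs. No member passed with the block. Members higher without overlap numbered 4 as deposited (41.6% of all genes), 1 with median centring (20.3%), and 4 to 7 without 1 library (45.1 to 65%). Members lower numbered 0 as deposited (11.5% of all genes), and 0 to 2 without 1 library (13 to 32%). With 1 library left on a side, the days separate more easily. Cldn4, Cldn7 and Cldn12 changed sign with median centring (-0.28, -0.35 and -0.16), with GC correction and with the replicate block plus GC correction (-0.01, -0.07 and -0.18 in both). Without 1 library they ranged from -0.56 to 1.27, from -0.50 to 1.06 and from -0.53 to 1.45. The cause was not tested. Cldn3, Cldn6, Ocln and Tjp1 kept their sign under every setting run. Their days did not overlap, so leaving out a library, the block alone, dropping the filter or changing the pseudocount could not reverse them. Median centring, GC correction and the largest row per gene could have. The share of all genes that kept their sign was not computed. Sizes varied. Without day 4 replicate 1 the difference of Cldn3 was 0.52, below that of Tjp1 (2.35), Ocln (2.21) and Cldn12 (1.45). Without day 4 replicate 2 the difference of Cldn3 was 3.26. Cldn5, which passed the filter through day 6 replicate 2, was at 0.21 without it and at 2.59 with a pseudocount of 0.1 FPKM. At day 4 depth the deposited intervals of Cldn5 (0.139 to 1.12 FPKM in replicate 2) and Ocln (0.495 to 1.36 FPKM in replicate 2) are wide for their levels.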
